A study of Mus musculus with 8 samples.

Results

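The genes described here are 38 mouse genes of the germline and of meiosis, chosen by name and matched by symbol to the Ensembl identifiers of the count files, which list 52550 genes. They were chosen with earlier results of these data known, so shares of members called are not an independent test against all genes. All 38 were found, and 37 passed the filter on low counts that left 20749 genes to be tested. Messenger RNA was sequenced from embryonic stem cells (ESCs, cultured cells of the early mouse embryo that can form all its lineages) in 4 groups of 2 libraries each. Control and Dax1KO cells were each sampled in the media 2i/LIF and LIF/serum. The 2i/LIF medium held PD0325901 (1 µM, an inhibitor of MEK), CHIR99021 (3 µM, an inhibitor of GSK3) and LIF (10 ng/ml), whereas LIF/serum held 15% fetal bovine serum and the same LIF without the inhibitors. The Dax1KO cells are 1 clone, made in 2i/LIF with a lentivirus that carries Cas9 and a guide against Dax1 (Nr0b1, an orphan nuclear receptor), selected with zeocin and later moved to LIF/serum. The study calls the control cells wild-type ESCs, without saying whether they carry a vector, and all cells were at passage 3.

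In animals most of these genes are read in germ cells and silent elsewhere. Their promoters are often rich in CpG, and DNA methylation, H3K9 methylation and the Polycomb complex PRC1.6, which holds E2F6, MGA and MAX, are known to keep them off in somatic cells and to limit them in ESCs. ESCs in 2i/LIF are known for low DNA methylation, and ESCs in LIF/serum for more of it. DNA methylation was not measured here.

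Total counts lay between 35911384 and 37286251 per library. Raw Nr0b1 counts in 2i/LIF were 456 and 300 in control cells against 0 and 0 in Dax1KO cells, and in LIF/serum 5095 and 4689 against 14 and 6. The 8 ESC markers were counted in every library, with sums of 167471 to 217321 normalized counts (counts scaled to a common library size). The 8 spermatid markers summed to 6 to 47, with Tnp1 at 0 in all groups, the 7 oocyte markers to 124 to 318 and the 6 somatic markers of testis and ovary to 48 to 196. Of the 9 tested genes of these 3 lists none was called with Dax1KO in either medium by edgeR, against 2 in each medium at an unadjusted p under 0.05 and 1 in each with DESeq2. The 6 primitive endoderm markers summed to 1057 to 1393 in 2i/LIF, to 3916 to 5487 in control cells in LIF/serum and to 12283 to 14567 in Dax1KO cells in LIF/serum, where 5 of them passed the test upwards. The largest of these changes were in Dab2 (log2 fold change 1.63), Sox17 (1.62) and Gata4 (1.44). The 7 markers of 2-cell-like cells, such as Zscan4d, summed to 480 to 987 in control and 111 to 121 in Dax1KO cells in 2i/LIF, and to 9859 to 14403 in LIF/serum. The 6 fibroblast markers summed to 1862 to 2349 in control and 1235 to 1311 in Dax1KO cells in 2i/LIF, and to 458 to 486 in control and 1434 to 1498 in Dax1KO cells in LIF/serum. Thy1 made up most of these sums, and Dcn had 3 raw counts in 1 library and Col3a1 had 4 in 1, with 0 in the others. In bulk RNA, fewer cells of a type and less RNA per cell cannot be told apart.

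By the GENCODE M21 annotation of GRCm38, Dazl (ENSMUSG00000010592.8) lies on the minus strand at chr17:50279395-50293636, Stag3 (ENSMUSG00000036928.14) on the plus strand at chr5:138280240-138312393 and Rpl10l (ENSMUSG00000060499.7) on the minus strand at chr12:66283379-66284401. Levels of different genes are compared per kilobase of exon, as CPM per kilobase (CPM per kb, CPM being the normalized share of all counts). In control cells in 2i/LIF Dazl was the highest of the 38 genes at 195 CPM per kb, followed by Rpl10l at 170, Tex19.1 at 78.1, Syce2 at 46.3 and Hormad1 at 40.0. In control cells in LIF/serum Rpl10l led at 167 CPM per kb, Syce2 followed at 38.8, and Dazl was at 5.42, in place 10. The lowest genes in 2i/LIF control cells were Tdrd9 (0.236), Piwil4 (0.137), Meiob (0.0454), Msh4 (0.0336) and Spo11, which makes the DNA breaks of meiosis. Spo11 had no count in any library, and 0 counts allow up to 3 in a library. The heat map of all 38 genes shows these levels by library.

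**Figure D1:**
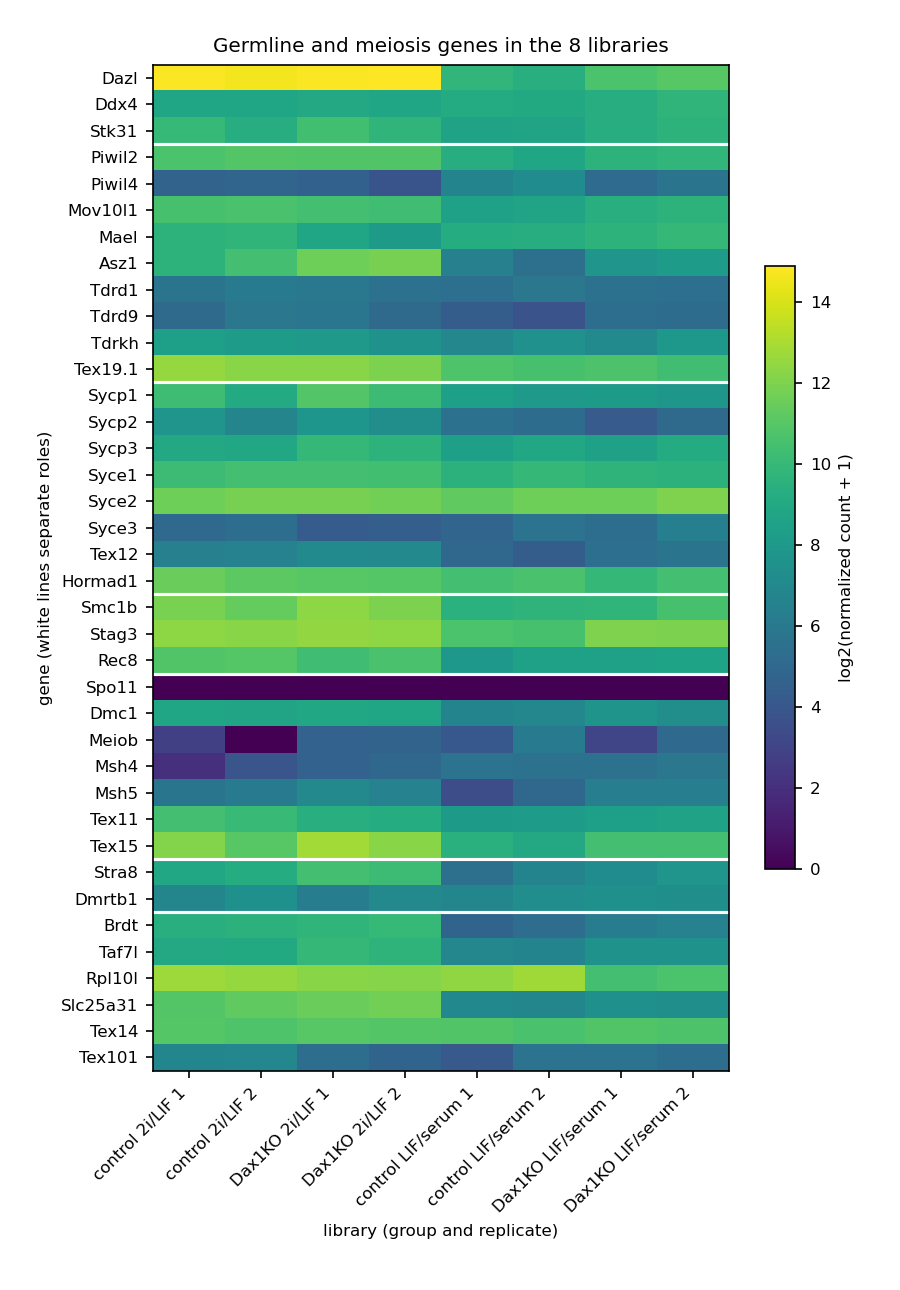
Each row is a gene and each column a library; colour gives log2(normalized count + 1), and white lines separate the roles in which the text describes the genes. Dazl has its brightest cells in the 4 libraries in 2i/LIF, Rpl10l is bright in all libraries but the 2 Dax1KO libraries in LIF/serum, where it is at 1386 and 1612 normalized counts, and Spo11 is at 0 in all 8.

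The region before the start of transcription was read from RefSeq on GRCm38.p6, as windows from 250 bases before to 50 bases after the start. A window was held for 33 of the 38 genes; Spo11, Meiob, Tex15, Piwil2 and Tex11 had no entry. The letters searched, on both strands, were GCGGGAA, which E2F6 is known to bind and which reads TTCCCGC on the other strand, and CACGTG, the palindromic E-box bound by MAX with MGA or MYC. The pair can overlap by 1 base at most, and a match describes the letters and is not a binding site. The E2F letters stood in 33.3% of the 33 genes, against 5.29% of all 27025 genes with a window. A gene with several windows was counted if any of them held the letters. The E-box stood in 45.5% against 8.09%, and both stood in 21.2% against 0.611%. The median CpG number, taken from the richest window of each gene, was 20 for the members and 8 for all genes, so the members' promoters were richer in CpG. Both sets of letters contain a CpG, and the shares were not matched for CpG content. The part of CpG content in the members' larger shares was not tested.

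Stretches of 7 promoters are shown. Dazl, Asz1, Brdt and Slc25a31 had the largest decreases with the medium, Taf7l and Rpl10l were called with Dax1KO, and Tex12 is shown for a stretch that holds both sets of letters. They are not a sample of the members, of which 14 of the 33 hold neither. The stretches lie outside annotated exons, read 5′ to 3′ on the gene's strand, and have the E-box and the E2F letters in capitals. The windows of Brdt and Taf7l hold the E-box alone, those of Tex12 and Slc25a31 hold both (the E2F letters of Slc25a31 lie past the start of transcription, outside the stretch shown), Rpl10l holds the E2F letters on the other strand, and Dazl and Asz1 hold neither.
Dazl (chr17:50293637-50293786, minus strand): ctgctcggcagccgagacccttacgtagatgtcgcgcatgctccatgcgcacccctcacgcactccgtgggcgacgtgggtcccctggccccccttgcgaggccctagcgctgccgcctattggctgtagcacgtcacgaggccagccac
Asz1 (chr6:18109062-18109211, minus strand): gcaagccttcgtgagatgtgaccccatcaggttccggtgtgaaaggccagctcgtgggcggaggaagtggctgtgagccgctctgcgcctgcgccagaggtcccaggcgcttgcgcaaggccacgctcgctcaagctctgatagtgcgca
Brdt (chr5:107331009-107331158, plus strand): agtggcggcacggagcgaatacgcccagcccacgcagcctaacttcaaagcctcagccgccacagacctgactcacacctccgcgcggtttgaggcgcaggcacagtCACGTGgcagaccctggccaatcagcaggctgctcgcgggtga
Slc25a31 (chr3:40708705-40708854, plus strand): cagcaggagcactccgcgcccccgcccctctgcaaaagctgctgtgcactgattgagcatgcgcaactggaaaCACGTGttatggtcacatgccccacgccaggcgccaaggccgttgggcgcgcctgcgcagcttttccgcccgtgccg
Taf7l (chrX:134476491-134476640, minus strand): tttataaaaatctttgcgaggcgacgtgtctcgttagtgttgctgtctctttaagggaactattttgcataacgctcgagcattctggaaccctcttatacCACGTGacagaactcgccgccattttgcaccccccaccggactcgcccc
Rpl10l (chr12:66284402-66284551, minus strand): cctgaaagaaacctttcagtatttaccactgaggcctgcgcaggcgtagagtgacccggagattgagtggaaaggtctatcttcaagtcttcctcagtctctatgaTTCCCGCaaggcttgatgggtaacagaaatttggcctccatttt
Tex12 (chr9:50561326-50561475, minus strand): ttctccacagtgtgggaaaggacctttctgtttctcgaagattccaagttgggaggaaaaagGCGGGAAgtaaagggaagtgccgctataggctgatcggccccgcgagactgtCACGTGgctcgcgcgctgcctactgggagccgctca

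**Figure D2:**
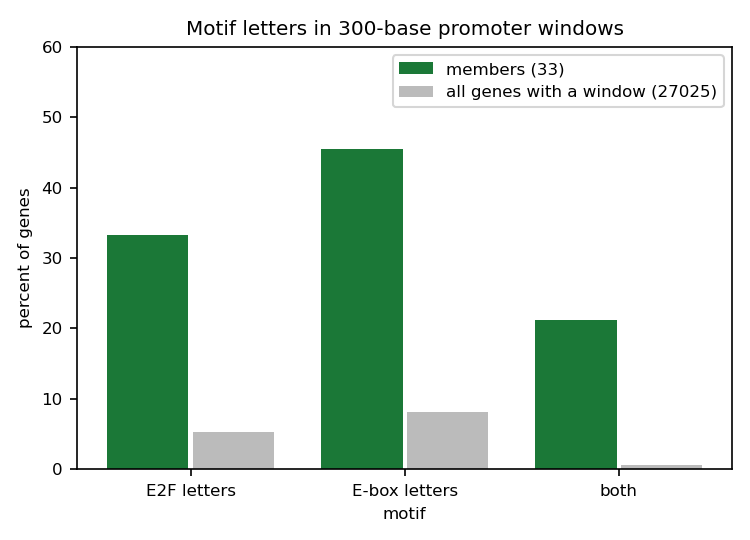
Bars give the percent of genes with the E2F letters, the E-box letters or both in any of their 300-base windows. Green bars are the 33 members with a window and grey bars all 27025 genes with a window. The members' bars stand at 33.3%, 45.5% and 21.2% against 5.29%, 8.09% and 0.611%.

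The comparison of LIF/serum with 2i/LIF in control cells asked how the genes depend on the medium while Dax1 is intact. Most of them were lower in LIF/serum: 25 fell and 3 rose, and 9 of the 37 did not pass the test. To pass, a gene needed a fold change of at least 1.2 and, in edgeR's quasi-likelihood test, an adjusted p (Benjamini-Hochberg, over all 20749 genes) of at most 0.05. Of all genes tested, 20.3% were called lower and 16.5% higher in this comparison, against 67.6% and 8.11% of the members. Because the members were chosen with earlier results of these data known, this difference, like those below, was not tested independently. The median log2 fold change was -1.66 over the members and -0.01 over all genes. Nothing in the sources says that the libraries of a group came from separate cultures, so p-values measure only the spread between these libraries. The primitive endoderm and 2-cell-like sums were higher in LIF/serum. In control cells the fibroblast sum was lower (458 to 486 against 1862 to 2349), with 3 of its 4 tested genes called lower and 1 higher. The somatic markers of testis and ovary summed to 119 to 196 in 2i/LIF and 48 to 94 in LIF/serum, and 1 of the 4 tested, Dhh (-1.45), was called lower. The oocyte markers summed to 314 to 318 in 2i/LIF and 233 to 267 in LIF/serum, and 1 of the 4 tested was called lower. The ESC marker sum was 215424 to 216017 in 2i/LIF and 167471 to 189743 in LIF/serum, with Nanog, Tfcp2l1 and Klf4 called lower and Pou5f1 higher. The part of these cell types in the members' differences was not tested.

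Dazl, an RNA-binding protein that licenses germ cells for gametogenesis, fell the most. Its normalized counts were 28968 and 25848 in control cells in 2i/LIF and 877 and 645 in LIF/serum, and the groups were far apart. The log2 fold change was -5.17 (SE, the standard error of the fit, 0.20, adjusted p = 1.35e-05). Stk31, a kinase-like protein of spermatogenic cells with a tudor domain, fell by 1.02 on the log2 scale. Ddx4, the RNA helicase known as Vasa, had an estimate of 0.34 that did not pass the test (adjusted p = 0.196).

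Among the 9 genes of the piRNA pathway and of transposon silencing, 6 fell and 1 rose. Asz1, a protein of the mitochondrial surface needed for piRNA production, went from 797 and 1373 normalized counts to 88.0 and 43.7. Its log2 fold change was -4.04 (SE 0.38, adjusted p = 0.00019). The piRNA helicase Mov10l1, the Piwi protein Piwil2 and Tex19.1, a factor against retrotransposons, fell by 1.95, 1.71 and 1.71 on the log2 scale. Piwil4, the nuclear Piwi protein that guides DNA methylation to transposons, rose instead, from 26.1 and 28.01 to 104.9 and 149.3 normalized counts (log2 fold change 2.23, SE 0.38, adjusted p = 0.00304). Mael, an HMG-box protein of the same pathway, was at 795 and 860 in 2i/LIF and at 588 and 611 in LIF/serum, and did not pass the test (adjusted p = 0.151).

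The 3 members that are subunits of meiotic cohesin, the ring that holds sister chromatids together in meiosis, fell, and Rad21l, a further subunit from the wider list, had too few counts to be tested. Rec8 had 1849 and 2039 normalized counts in 2i/LIF and 242 and 373 in LIF/serum (log2 fold change -2.66, SE 0.22, adjusted p = 0.000109). Smc1b fell by 2.08 and Stag3 by 1.72 on the log2 scale. Of the 8 genes of the synaptonemal complex and the chromosome axis, the protein ladder that joins paired chromosomes, 5 fell and 3 did not pass. Sycp2 (-1.91), Tex12 (-1.86), Sycp1 (-1.54), Hormad1 (-0.81) and Syce1 (-0.57) fell, and Sycp3, Syce2 and Syce3 had log2 estimates of -0.27, -0.25 and 0.09.

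In meiotic recombination, 4 genes fell and 2 rose. Tex15 (log2 fold change -2.47), Tex11 (-2.14), the strand exchange protein Dmc1 (-1.95) and Msh5 (-1.66) fell. Msh4, the partner of Msh5 at crossover sites, rose from 3.01 and 14.0 to 50.9 and 46.9 normalized counts (log2 fold change 2.51, SE 0.59, adjusted p = 0.0125). Meiob, which binds single-stranded DNA in meiosis, was at 6.02 and 0 in 2i/LIF and at 15.9 and 70.4 in LIF/serum. Its call (adjusted p = 0.0423) rests on very few counts. Such low values piled up at 3 and 6 in the files (in the first control library in 2i/LIF 1509 genes had a count of 3, against 929 with 2 and 515 with 4), so they need not be numbers of independent fragments.

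Stra8, the factor that starts meiosis, went from 479 and 600 to 43.5 and 104 normalized counts (log2 fold change -2.88, SE 0.38, adjusted p = 0.000823), and Dmrtb1 did not pass. Among the 6 genes of spermatogenic chromatin, transcription and metabolism, 4 fell. Brdt, the testis bromodomain protein that binds acetylated histones, went from 672 and 775 to 26.5 and 39.5 (log2 fold change -4.45, SE 0.26, adjusted p = 2.91e-05). Slc25a31, the ADP/ATP carrier of germ cell mitochondria, went from 1959 and 2440 to 121 and 115 (log2 fold change -4.22, SE 0.17, adjusted p = 1.35e-05). These 2 genes, with Dazl and Asz1, were the members that fell by more than 4 on the log2 scale. Taf7l, a TFIID subunit of germ cells, fell by 2.22 and the surface protein Tex101 by 1.77. Rpl10l, a ribosomal protein that stands in for its X-linked relative in meiosis, and Tex14, a protein of the bridges between germ cells, had estimates of -0.03 and -0.15 (adjusted p = 0.892 and 0.422). Without the first or the second control library in 2i/LIF, 19 and 20 members were called lower, and without the first or the second in LIF/serum 17 and 21. The calls of Stk31, Tdrd9, Tdrkh, Sycp1, Sycp2, Syce1, Hormad1, Meiob, Msh5 and Tex101 were lost in at least 1 of the alternatives tried.

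The same change of medium in Dax1KO cells asked whether the genes depend on it without Dax1. Here 22 members fell, 4 rose and 11 did not pass, and the median log2 fold change was -0.83 against -0.01 for all genes. Called lower were 59.5% of the members and 15.2% of all genes, and called higher were 10.8% and 13.7%. The 2 changes of medium share no library, but both come from 1 fit with a shared estimate of the spread, so their calls are not independent. In both, 20 members fell, which is 20 of the 25 in control cells and of the 22 in Dax1KO cells. Of all genes tested 2384 fell in both, of 4210 in control and 3148 in Dax1KO cells, which is 11.5% of the genes against 54.1% of the members. They include Dazl, Asz1, Brdt, Slc25a31, Stra8, Rec8, Smc1b and Stag3. All 6 primitive endoderm markers (median log2 fold change 3.35) and all 7 markers of 2-cell-like cells (7.86) were called higher in the Dax1KO comparison. The ESC markers summed to 205426 to 217321 in 2i/LIF and 176734 to 176860 in LIF/serum, with 3 called higher and 2 lower. The somatic markers of testis and ovary summed to 133 to 156 and 71 to 80, with none called. Of the 4 tested oocyte markers 1 was called higher and 1 lower, as were 1 and 1 of the 4 tested fibroblast markers. The part of these lists in the members' differences was not tested.

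Dazl fell by 4.02 on the log2 scale (SE 0.19, adjusted p = 1.97e-05), from 29032 and 30473 to 1626 and 2053 normalized counts. Slc25a31 fell by 4.19, Asz1 by 3.74 and Brdt by 3.45. These 4 genes thus had the largest decreases of the members in both genotypes. Stag3 fell by 0.42 (adjusted p = 0.0228), from 5658 and 5252 to 4178 and 3978. Ddx4 (0.65), Piwil4 (1.24), and Mael (1.31) rose, as did Syce3, a small protein of the central element of the synaptonemal complex, by 3.04-fold. Rpl10l, which had not passed in control cells, fell by 1.66 (SE 0.16, adjusted p = 0.000251). Sycp3 fell by 0.91, but it is uncertain, since 56.5% of its transcript matches the overlapping gene Chpt1 on the opposite strand, and no source says whether reads were counted by strand. Without the first Dax1KO library in 2i/LIF, 18 members were called lower and 1 higher, without the second 19 and 1, without the first in LIF/serum 18 and 3, and without the second 20 and 1. The calls of Ddx4, Piwil4, Sycp3, Syce1, Syce3, Hormad1, Stag3 and Tex11 were lost in at least 1 of the alternatives tried.

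**Figure D3:**
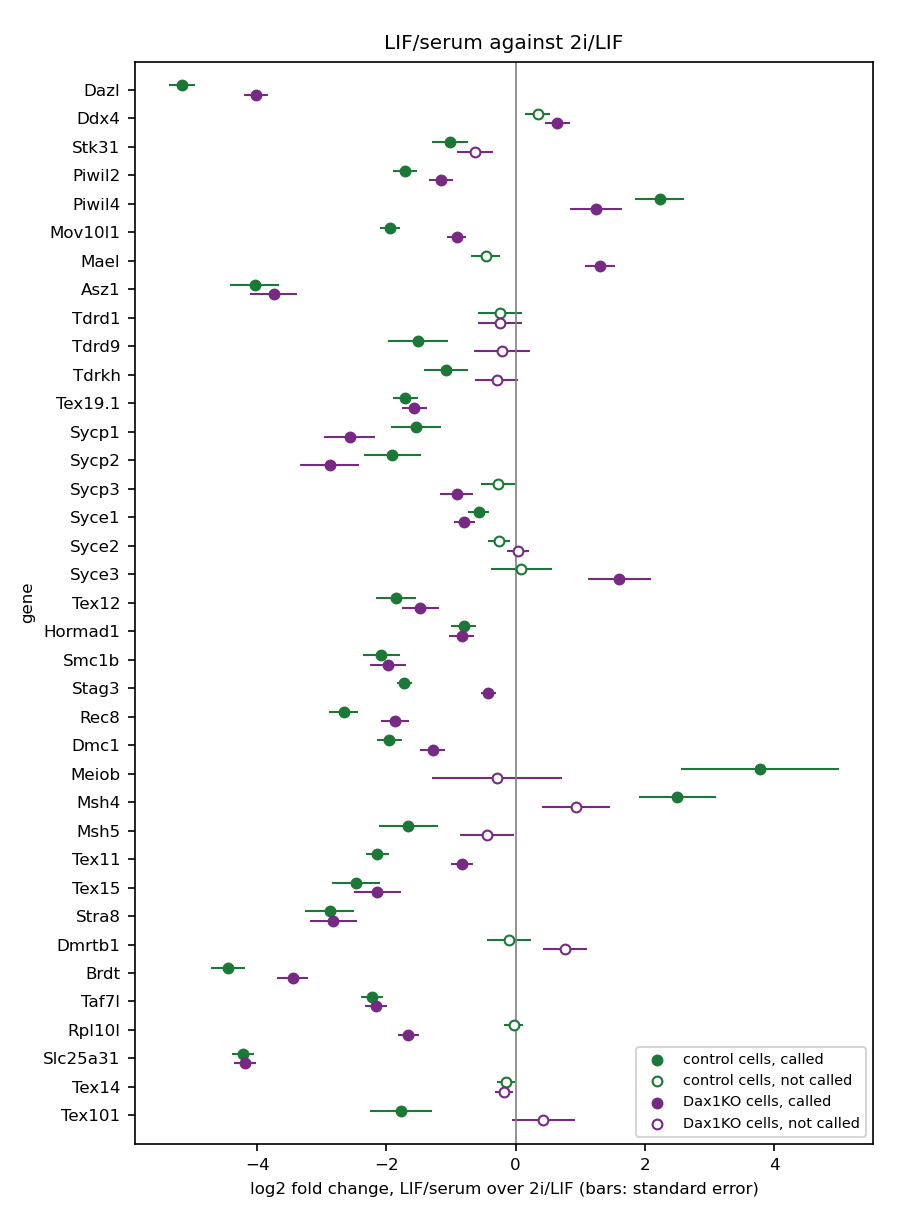
Points give the log2 fold change of LIF/serum over 2i/LIF for each of the 37 tested genes in control (green) and Dax1KO cells (purple); bars are standard errors, and filled points passed the test. Most points lie left of 0, with Dazl at -5.17 in control and -4.02 in Dax1KO cells, while Piwil4 lies at 2.23 and 1.24.

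Dax1KO cells were then compared with control cells in the same medium. In 2i/LIF, 2 members rose, 2 fell and 33 did not pass, which is 5.41% in each direction against 1.51% of all genes called higher and 1.65% called lower. The median log2 fold change was 0.10 against -0.01 for all genes. Asz1 was at 797 and 1373 normalized counts in control cells and at 3165 and 3696 in Dax1KO cells (log2 fold change 1.66, SE 0.33, adjusted p = 0.0401). Taf7l rose from 499 and 527 to 956 and 831 (log2 fold change 0.80, SE 0.16, adjusted p = 0.0425). Of the 7 markers of 2-cell-like cells, 4 were called lower and none higher in the same comparison, with the largest changes in Zscan4d (-4.77), Zscan4c (-3.46) and Zscan4f (-3.25). Of the fibroblast markers Thy1 (-0.85) was called lower, and of the primitive endoderm markers Dab2 (1.28) was called higher. The oocyte markers summed to 314 to 318 in control and 124 to 190 in Dax1KO cells and the spermatid markers to 22 to 47 and 6 to 7, with all 4 and the 1 tested estimates below 0 and none called. The part of these lists in the members' differences was not tested.

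Mael fell from 795 and 860 normalized counts to 441 and 275 (log2 fold change -1.21, SE 0.23, adjusted p = 0.038). Tex11, an X-linked protein needed for crossovers, fell from 1378 and 1113 to 672 and 593 (log2 fold change -0.98, SE 0.17, adjusted p = 0.0271). Dazl, at 28968 and 25848 against 29032 and 30473, had an estimate of 0.12 that did not pass (adjusted p = 0.799). With 1 of the 4 libraries in 2i/LIF left out, whichever it was, none of the 4 calls passed in edgeR's quasi-likelihood test. Without either Dax1KO library in LIF/serum, which enter the shared estimate of the spread, 0 members were higher and 1 was lower. DESeq2 on all libraries called 4 members higher and 3 lower, and at an unadjusted p under 0.05 edgeR gave 8 and 4. The shares of all genes by these settings are not given here or below, so such counts show only how the calls depend on the setting.

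In LIF/serum, 8 members were higher in Dax1KO cells, 2 were lower and 27 did not pass. Called higher were 21.6% of the members against 8.87% of all genes, and called lower 5.41% against 5.78%. The median log2 fold change was 0.43 over the members and 0.01 over all genes, with 28 estimates above 0 and 9 below. Dazl was at 877 and 645 normalized counts in control cells and at 1626 and 2053 in Dax1KO cells. Its log2 fold change was 1.27 (SE 0.17, adjusted p = 0.0051). The Dax1KO level was still far below the lowest library in 2i/LIF, at 25848.

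Stag3, the cohesin subunit that encircles meiotic chromosomes with Rec8, went from 1617 and 1506 to 4178 and 3978 normalized counts. This is a log2 fold change of 1.38 (SE 0.11, adjusted p = 0.00111), and the levels came close to the 4921 to 5658 of the 4 libraries in 2i/LIF. The cohesin partners Rec8 and Smc1b had estimates of 0.33 and 0.60 that did not pass (adjusted p = 0.333 and 0.19). Among the piRNA genes, Asz1 rose from 88.0 and 43.7 to 220.0 and 291.5 (log2 fold change 1.95, SE 0.37, adjusted p = 0.0142). Mov10l1 rose from 374 and 420 to 643 and 781 (log2 fold change 0.84, SE 0.15, adjusted p = 0.0115). Piwil4 was lower, at 36.4 and 51.7 against 104.9 and 149.3 (log2 fold change -1.53, SE 0.37, adjusted p = 0.0317).

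In recombination, Msh5 rose from 10.6 and 29.9 to 81.3 and 82.9 normalized counts (log2 fold change 2.01, SE 0.46, adjusted p = 0.0255). Dmc1 rose from 103 and 117 to 206 and 165 (log2 fold change 0.75, adjusted p = 0.0388). Of the germ cell regulators of transcription, Brdt rose from 26.5 and 39.5 to 74.6 and 96.5 (log2 fold change 1.37, SE 0.26, adjusted p = 0.0138) and Taf7l from 117 and 104 to 195 and 204 (log2 fold change 0.86, adjusted p = 0.0167). None of the 8 genes of the synaptonemal complex and the chromosome axis passed in edgeR's test in either medium, where an unadjusted p under 0.05 gave 1 higher in each and DESeq2 gave 1 in 2i/LIF and 0 in LIF/serum. Stra8 and Tex15 were higher in both Dax1KO libraries, with log2 estimates of 1.31 and 1.19, but missed the threshold (adjusted p = 0.0514 and 0.0609).

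Rpl10l had the largest decrease of the members. It was at 5430 and 7114 normalized counts in control cells and at 1386 and 1612 in Dax1KO cells (log2 fold change -2.07, SE 0.16, adjusted p = 0.00109). Of its transcript 62.5% matches Gm14460 at up to 97.3% identity, and Gm14460 had only 1 to 7 counts in any library. In control cells it had 6784 and 6039 in 2i/LIF, so the 2 Dax1KO libraries in LIF/serum stand below all 6 others.

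Dazl, Stag3 and Rpl10l passed in all alternatives tried, and the other 7 calls in LIF/serum did not. Without the second Dax1KO library 2 members were called higher and 1 lower, without the first 5 and 1, and without the first or the second control library 6 each with 2 and 1 lower. The same Dax1KO libraries had higher sums of the primitive endoderm markers (12283 to 14567 against 3916 to 5487) and of the fibroblast markers (1434 to 1498 against 458 to 486), with 5 of 6 and 2 of 4 tested genes called higher. The latter were Col1a1 (log2 fold change 2.13) and Thy1 (1.63). Of the 8 ESC markers Klf4 (0.79) was called higher. The part of these lists in these differences was not tested.

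**Figure D4:**
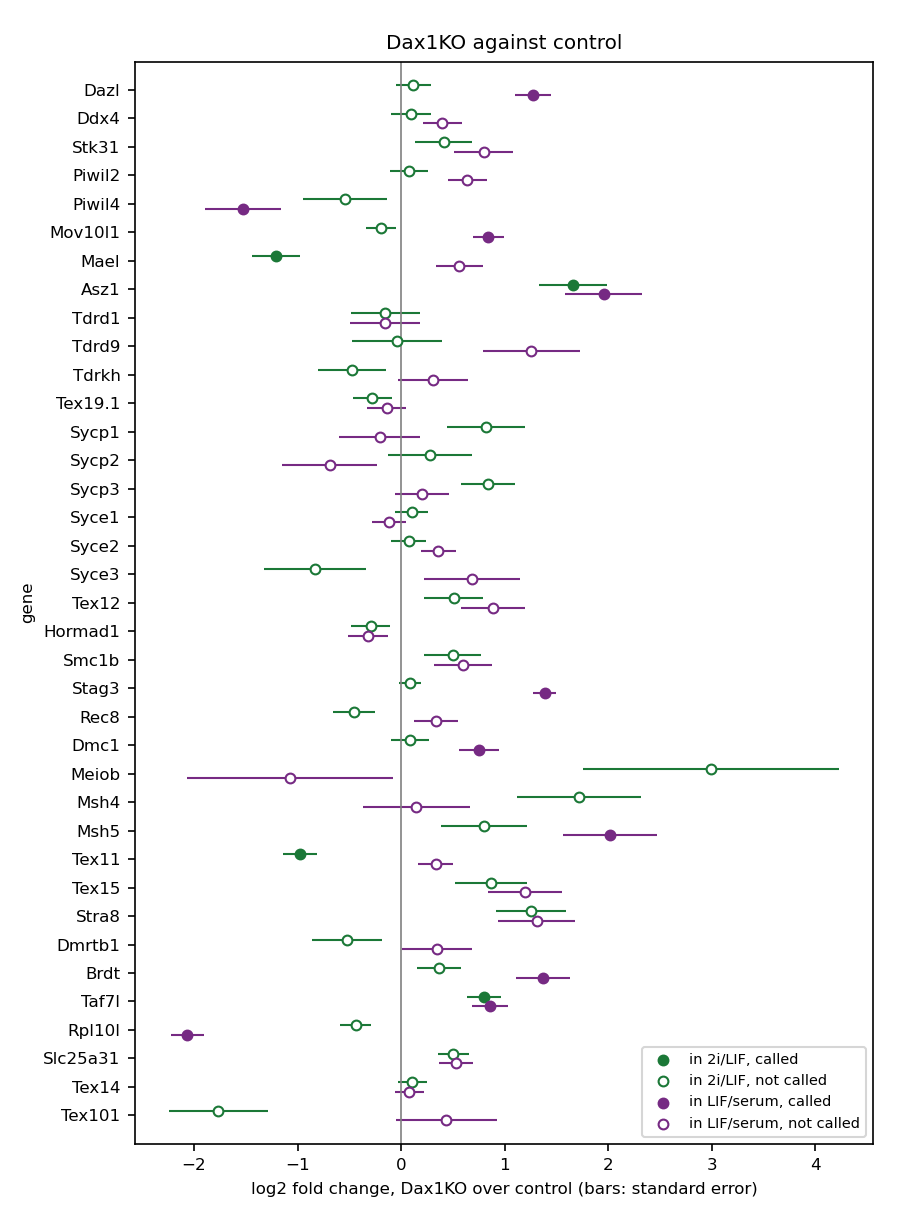
Points give the log2 fold change of Dax1KO over control for each of the 37 tested genes in 2i/LIF (green) and LIF/serum (purple); bars are standard errors, and filled points passed the test. In LIF/serum 8 filled points lie right of 0 and 2 left, Piwil4 at -1.53 and Rpl10l at -2.07, and in 2i/LIF 2 lie on each side.

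Asz1, Stk31 and Stra8 lie on chromosome 6, on which Dax1KO cells had higher counts at large. Over the 1054 tested genes of chromosome 6 the median log2 fold change was 0.44 in 2i/LIF and 0.52 in LIF/serum, where 104 and 298 genes were called higher and 7 and 17 lower. In 2i/LIF this is 9.87% higher and 0.664% lower, against 1.51% and 1.65% of all genes. In LIF/serum it is 28.3% and 1.61%, against 8.87% and 5.78%. The part of this shift in the 3 members was not tested. Without them, 1 member was called higher in 2i/LIF and 7 in LIF/serum. The estimates of Asz1 (1.66) and Stra8 (1.25) in 2i/LIF were above the chromosome's median and that of Stk31 (0.41) was below it. In LIF/serum those of Asz1 (1.95), Stra8 (1.31) and Stk31 (0.80) were above it, and of the 3 genes Asz1 alone passed the test, in both media.

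Whether the effect of Dax1KO differed between the media was asked by the genotype by medium interaction, with an adjusted p of at most 0.05 alone. It was more positive in LIF/serum for 5 members and more negative for 1, which is 13.5% and 2.7% against 2.05% and 0.824% of all genes tested. The same interaction was called more positive in 3 of the 7 markers of 2-cell-like cells, 2 of the 6 of primitive endoderm and 1 of the 4 tested of fibroblasts, and their part in it was not tested. The 5 were Stag3 (difference of log2 fold changes 1.30, SE 0.15, adjusted p = 0.0112), Tex11 (1.31, adjusted p = 0.0359), Mael (1.77, adjusted p = 0.0373), Mov10l1 (1.04, adjusted p = 0.0442) and Dazl (1.15, adjusted p = 0.0482). Rpl10l was the member with the opposite sign (-1.63, SE 0.22, adjusted p = 0.0151).

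The 6 genes followed different courses. Dazl and Stag3 were nearly level between genotypes in 2i/LIF and higher in Dax1KO cells in LIF/serum. Mael and Tex11 were lower in Dax1KO cells in 2i/LIF, and in LIF/serum had 784 and 988 normalized counts against 588 and 611, and 333 and 379 against 280 and 286, without passing there. Without either Dax1KO library in 2i/LIF none of the 6 passed the interaction test in edgeR, where an unadjusted p under 0.05 on all libraries gave 9 members more positive and 2 more negative and DESeq2 gave 5 and 1. Leaving out any other library kept 1 to 3 of them.

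**Figure D5:**
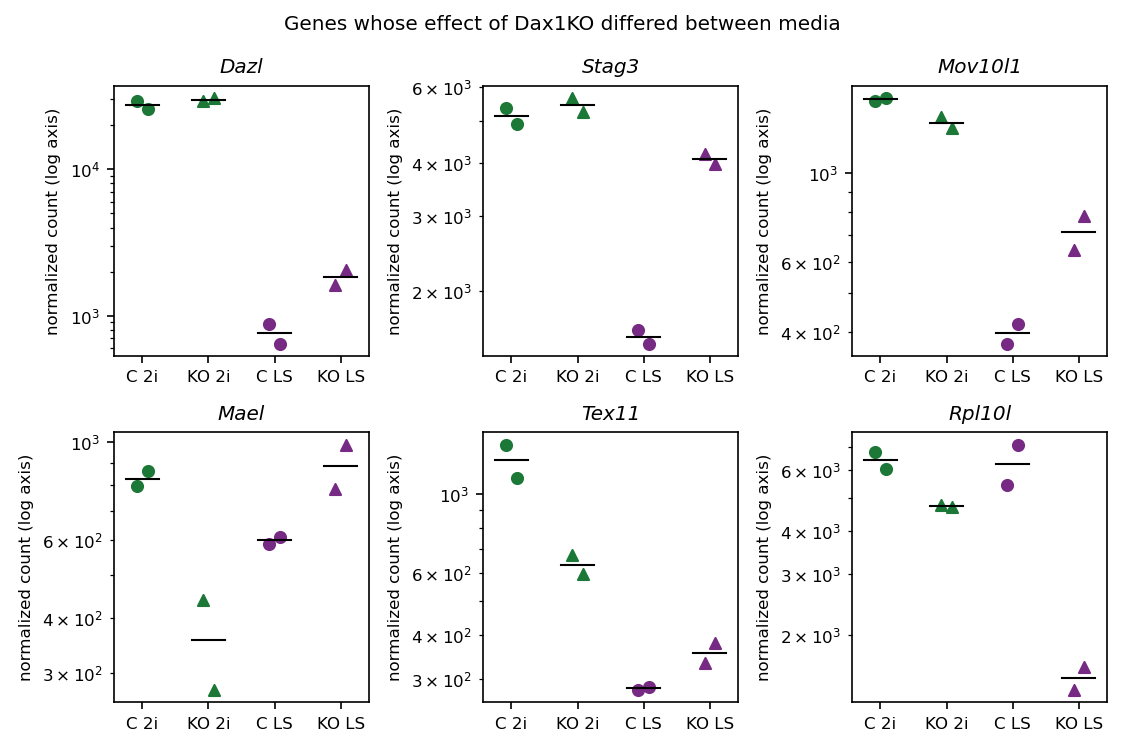
Points are the normalized counts of the 8 libraries on log axes for the 6 genes that passed the interaction test (C control, KO Dax1KO, 2i 2i/LIF, LS LIF/serum; circles control, triangles Dax1KO, bars the means). Stag3 reaches 3978 to 4178 in Dax1KO cells in LIF/serum against 1506 to 1617 in control cells, and Rpl10l drops to 1386 to 1612 there.

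The letters of the promoters were set beside these changes for the 33 genes with a window, as counts without a test. Of the 15 with an E-box, 10 fell with LIF/serum in control cells, and of the 18 without, 12 fell. Of the 11 with the E2F letters 6 fell, against 16 of the 22 without. In LIF/serum, 4 of the 15 genes with an E-box and 4 of the 18 without were higher in Dax1KO cells. Dazl and Asz1, with neither set of letters, Brdt, with the E-box alone, and Slc25a31, with both, fell with the medium in control cells.

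Tdrd1, Syce2, Dmrtb1 and Tex14 passed in none of the 5 comparisons. Syce2, of the central element of the synaptonemal complex, stayed between 2488 and 4083 normalized counts and Tex14 between 1541 and 2115, whereas the tudor protein Tdrd1, at 41.9 to 68.0, was too low for small changes to be seen. Tdrkh and Hormad1 are uncertain, since 39.6% of the Tdrkh transcript matches the overlapping gene Oaz3 and 65.7% of the Hormad1 transcript matches Gm15529, which had 1 to 15 counts.

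The wider germline programme was read from 47 further genes, of which 43 were tested. In control cells 17 of them fell with LIF/serum and 4 rose, the median being -0.53 on the log2 scale, and in Dax1KO cells 17 fell and 4 rose. This is 39.5% lower and 9.3% higher in each genotype, against 20.3% and 16.5% of all genes in control cells and 15.2% and 13.7% in Dax1KO cells. With Dax1KO in 2i/LIF none rose and 2 fell, Majin (-1.16) of the meiotic telomere complex and the germ cell specification factor Prdm14 (-0.86), where an unadjusted p under 0.05 gave 2 and 6 and DESeq2 2 and 3. This is 0% and 4.65% of the 43, against 1.51% and 1.65% of all genes. In LIF/serum 4 rose and 5 fell, where 9.3% called higher is close to the 8.87% of all genes and 11.6% called lower stands against 5.78%. DESeq2 called 7 higher and 6 lower there, and an unadjusted p under 0.05 gave 10 and 8. The tudor protein Tdrd7 (1.83), the meiotic break factor Rec114 (1.45), the helicase Ddx25 (0.65) and the germ cell transcription factor Sohlh2 (0.57) rose. The germ cell RNA-binding protein Nanos3 (-1.62), the piRNA factor Tdrd12 (-1.19), the specification factors Prdm1 (-0.83) and Tfap2c (-0.74), and Ccnb1ip1 (-0.64) fell.

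Among factors known to silence germline genes, the 14 PRC1.6 subunits held 2 that fell with Dax1KO in 2i/LIF, the ubiquitin ligase Rnf2 (-1.30) and Wdr5 (-0.74). In LIF/serum Rnf2 (-1.20) and L3mbtl2 (-0.47) fell and Rybp (0.57) rose. The 2 subunits called lower in 2i/LIF are 14.3% of the 14, against 1.65% of all genes. None was called higher by edgeR there, where an unadjusted p under 0.05 gave 2 higher and 3 lower and DESeq2 1 and 3. These settings thus called subunits in both directions. For LIF/serum the shares were 14.3% lower, against 5.78% of all genes, and 7.14% higher, against 8.87%. With that medium an unadjusted p under 0.05 gave 1 higher and 3 lower, and DESeq2 1 and 2. Rnf2 was at 5955 and 4826 normalized counts in control cells and 2212 and 2165 in Dax1KO cells in 2i/LIF, and at 6603 and 4428 against 2395 and 2393 in LIF/serum. The list of 15 factors of DNA and H3K9 methylation is mixed, since it also holds Tet1, Tet2 and Tet3, which oxidize 5-methylcytosine. Its counts are therefore not counts of silencers. None of the 15 passed with Dax1KO in 2i/LIF by edgeR, where an unadjusted p under 0.05 gave 4 higher and DESeq2 2. In LIF/serum the oxidase Tet3 (1.27) rose, as 6.67% of the list against 8.87% of all genes. With the change of medium in control cells 7 of the 15 rose and 2 fell, which is 46.7% and 13.3% against 16.5% and 20.3% of all genes. In Dax1KO cells 4 rose and 2 fell, which is 26.7% and 13.3% against 13.7% and 15.2%.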

How the data were processed

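The 8 libraries of messenger RNA, 2 in each combination of genotype and medium, were grouped by their descriptions. The values deposited by the authors are raw counts of each gene in each library, not normalized. The submitters' processing notes name HISAT2 2.0.4, DESeq2 and the build mm10; the counting tool, its use of strand and the annotation are not given in the sources used here. Counts were tested with edgeR 4.0.16 in R 4.3.3: filterByExpr left 20749 of 52550 genes, libraries were scaled by TMM (factors 0.96 to 1.04), and all genes were fitted with 1 mean per group in a quasi-likelihood model. P values were adjusted by Benjamini-Hochberg over all genes tested, and a call needed an adjusted p of at most 0.05 and, except for the interaction, a fold change of at least 1.2. The biological coefficient of variation was 20.9%. Totals of 35911384 to 37286251 counts gave similar depth, a floor of 3 counts covers counting error only, and the number of libraries limits the precision. Transcripts were aligned to all GENCODE M21 transcripts with blastn 2.17.0 at 95% identity or more. Steps were tested on simulated data. Alternatives were DESeq2 1.42.0, RLE factors, 2 other filters, a replicate block, only the libraries of 1 medium, other thresholds, members on chromosome 6 left out and each library left out. All 38 members are named, and of each other list the 3 called genes with the largest change per genotype comparison, or all where fewer were called. Sohlh2, Rad21l, Col3a1, Dcn, Dhh, Nanog, Tfcp2l1, Pou5f1 and, for the medium, Klf4 fall outside this rule and were named after their values were seen. Members and lists were chosen with earlier results of these data known.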

Additional observations from a re-analysis of the deposited data

Results flagged for a closer look

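For 6 genes the change with Dax1KO was not the same in the 2 media by edgeR's interaction test. The differences of the log2 fold changes, LIF/serum minus 2i/LIF, were 1.15 for Dazl, 1.04 for Mov10l1, 1.77 for Mael, 1.30 for Stag3, 1.31 for Tex11 and -1.63 for Rpl10l. Mael and Tex11 had estimates of opposite sign in the media, -1.21 and 0.56 for Mael and -0.98 and 0.33 for Tex11, as did Mov10l1 with -0.19 and 0.84. For Stag3 (0.08 and 1.38), Dazl (0.12 and 1.27) and Rpl10l (-0.44 and -2.07) the larger change was in LIF/serum. Without either Dax1KO library in 2i/LIF none of the 6 passed, and the cause was not tested.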

How the results depend on the processing

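No call changed its sign under any alternative tried. Counts under the alternatives are given without the share of all genes under the same setting, so they show no excess over all genes. The filter of at least 10 counts in every library left Msh4 and Meiob untested for the medium in control cells. Among the calls kept there, Msh4 is counted by the alternatives in which it was tested. Calls that passed in all alternatives with other tools, scaling, filters, blocks or libraries numbered 0 of 4 for Dax1KO in 2i/LIF, 3 of 10 in LIF/serum, 0 of 6 for the interaction, 18 of 28 for the medium in control cells and 18 of 26 in Dax1KO cells. For Dax1KO in 2i/LIF (2 higher, 2 lower), no filter on low counts gave 0 and 0, only the libraries of that medium 1 lower, an unadjusted p under 0.05 gave 8 and 4, a fold change of at least 2 gave 1 and 1, DESeq2 4 higher, and leaving out chromosome 6 gave 1 higher; with a library left out 0 to 3 were higher and 0 to 2 lower. For Dax1KO in LIF/serum (8 higher, 2 lower), no filter gave 1 lower, only the libraries of that medium 5 higher, an unadjusted p 16 higher and a fold change of 2 gave 5 higher; with a library left out 2 to 8 were higher and 1 to 2 lower. For the interaction (5 and 1), no filter gave 1 and 0 and an unadjusted p 9 and 2; with a library left out 0 to 2 and 0 to 1 passed. For the medium in control cells (3 higher, 25 lower), a minimum of 10 counts in every library gave 1 higher; with a library left out 2 to 3 were higher and 17 to 24 lower. In Dax1KO cells (4 and 22), no filter gave 1 higher; with a library left out 1 to 3 were higher and 18 to 22 lower. The causes were not tested.

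Libraries of different groups share only a replicate number: across genes, the correlation of deviations between groups for equal numbers was -0.015 to 0.108. With the replicate number as a block, 0 members were higher and 1 lower for Dax1KO in 2i/LIF, 10 and 2 in LIF/serum, 2 and 1 differed between media, 2 were higher and 25 lower with LIF/serum in control cells, and 3 and 22 in Dax1KO cells. With 2 libraries per group, changes of genes under about 100 counts, such as Meiob, Msh4 and Piwil4, are poorly resolved at this depth.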
